A study of Mus musculus with 4 samples.

Results

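A set of 9 genes of the Hedgehog pathway was followed in differentiating mouse embryonic stem cells (ESCs), namely the ligands Shh and Ihh, the receptor Ptch1, the signal transducer Smo, the ligand-binding antagonist Hhip, the transcription factors Gli1, Gli2 and Gli3, and Sufu, a cytoplasmic restraint of the Gli proteins. They were chosen by symbol, for their place in the pathway, from the 24421 genes of the count files, and all 9 were counted in at least 1 library. The data were 4 Illumina TruSeq RNA libraries of R1, an established line of mouse ESCs, with 2 replicates in each of the states Undiff and Day4. Undiff received no retinoic acid (RA), and is described in the methods as ESCs kept with leukaemia inhibitory factor and in the sample labels as embryoid bodies, which are ESC aggregates grown for 4 days. Day4 was embryoid bodies, formed for 4 days without that factor and then exposed for 4 days to RA, a vitamin A derivative, at 2 µM in the series design and at 2 mM in the sample labels. The states differed in RA and in time in culture. If Undiff was embryoid bodies, as labelled, Day4 was grown on for the 4 days with RA. If Undiff was ESCs, as in the methods, Day4 was also grown on for the 4 days of aggregation before RA. By the methods they differed in the cytokine and in aggregation as well. The effects of these differences cannot be told apart here. Whether the states differed in aggregation depends on which description of Undiff holds, and Day4 without RA was not analysed here. All libraries came from the same cell line, and the replicates were grown and treated separately according to the methods.

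Hedgehog ligands are secreted, lipid-modified proteins that bind Ptch1 on the receiving cell. Without ligand Ptch1 holds Smo inactive, and the Gli proteins are retained by Sufu or processed into repressors, mainly in the case of Gli3. With ligand, Smo accumulates in the primary cilium and full-length Gli2 and Gli3 become activators. Gli1, Ptch1 and Hhip are themselves transcribed in response to the signal in many tissues, so that their mRNA is often used as a readout of it. In the early embryo Shh is made by the notochord, floor plate and gut endoderm, and Ihh by visceral endoderm and later by cartilage and gut.

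Counts on genes numbered from 32099074 to 47730944 per library. Of all fragments in the count files, summary lines included, 12.1% and 13.2% fell on no gene in the Undiff libraries and 7.50% and 7.74% in the Day4 libraries. A differentially expressed gene (DEG) had an adjusted p of at most 0.05 in edgeR's quasi-likelihood test, a change of at least 2-fold and, on average, 5 or more normalized counts. Normalized counts are counts scaled to a common library size, and serve to compare a gene between libraries. All 8 markers of pluripotent cells were DEGs with lower counts in Day4, and their summed level in CPM (counts scaled to a library total of 1000000) was 3472 and 3578 in Undiff and 26.8 and 20.8 in Day4.

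Of the 9 Hedgehog genes 5 were DEGs, and all 5 were higher in Day4. These were Shh, Ihh, Smo, Gli3 and Sufu. The share of members called higher was 55.6%, beside 22.2% of all 19891 genes tested (42.8% were DEGs in either direction, and 20.6% were DEGs lower in Day4). The other 4 members, Ptch1, Hhip, Gli1 and Gli2, had estimated changes of less than 2-fold. Without a minimum fold change the adjusted p was at most 0.05 for all 9, as it was for 75.6% of all genes tested, and Ptch1 was then the only member lower in Day4. The median log2 fold change (Day4 over Undiff) was 1.88 over the members and -0.03 over all genes tested. All 9 members had a mean normalized count of at least 5, Shh through its Day4 libraries alone. Of the 16472 genes with such a mean 51.7% were DEGs in either direction, near the 55.6% of the members. Among these 16472 genes 4420 were DEGs higher in Day4, and 14309 had an adjusted p of at most 0.05 without a minimum fold change. The 2 libraries of one state did not overlap with those of the other for any of the 9 genes, and the same held for 85.4% of all genes tested. In bulk RNA, a change in the share of cells that express a gene and a change in its RNA per cell cannot be told apart.

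**Figure D1:**
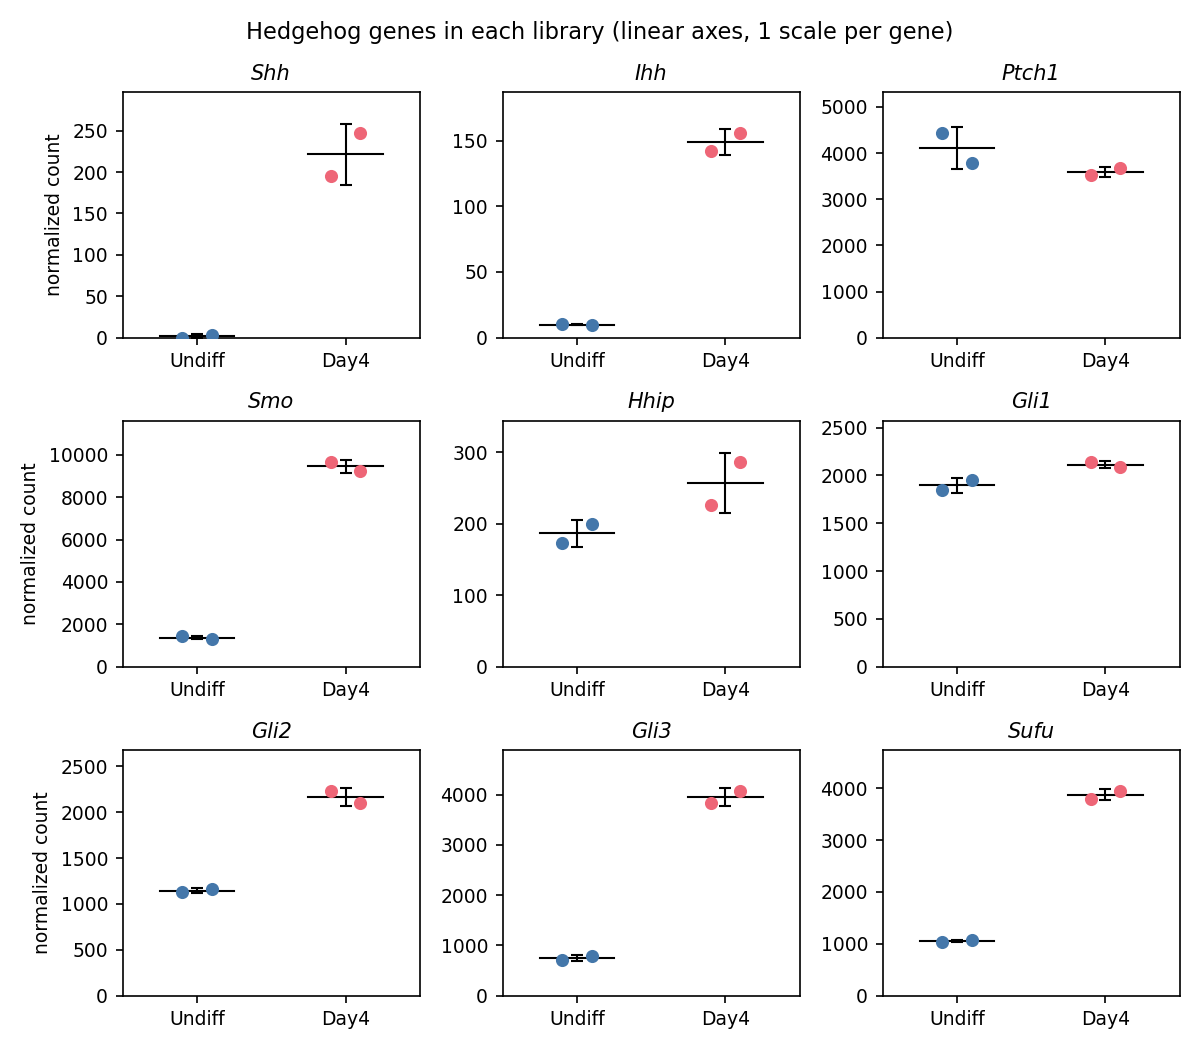
Normalized counts of the 9 Hedgehog genes (vertical axis, linear, one scale per gene) in each Undiff and Day4 library. Points are libraries, horizontal lines are means and error bars are SD (n = 2). Shh, Ihh, Smo, Gli3 and Sufu stood well above Undiff in both Day4 libraries, whereas the states lay close together for Ptch1, Gli1 and Hhip.

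The sequence before the start of the gene was examined for the members found in RefSeq's table of promoters (GRCm38.p6), which held 7 of the 9, without Shh and Gli1. Among these 7, only Gli2 had a match to the GLI core. The 250 bases before the start of Gli2 and of Ihh, Smo and Sufu, which were DEGs, are printed to show what these windows hold. They lie at chr1:74951673-74951922 (Ihh, minus strand), chr6:29735247-29735496 (Smo, plus strand), chr19:46396646-46396895 (Sufu, plus strand) and chr1:119053620-119053869 (Gli2, minus strand). Capitals mark matches to a GC box (GGGCGG) or to the core of the GLI site (ACCACCC), each on either strand.
Ihh: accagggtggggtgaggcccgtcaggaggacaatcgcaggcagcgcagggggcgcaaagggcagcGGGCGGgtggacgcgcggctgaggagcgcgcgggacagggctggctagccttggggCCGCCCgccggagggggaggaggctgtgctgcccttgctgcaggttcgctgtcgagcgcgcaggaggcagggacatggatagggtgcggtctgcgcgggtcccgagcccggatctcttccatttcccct
Smo: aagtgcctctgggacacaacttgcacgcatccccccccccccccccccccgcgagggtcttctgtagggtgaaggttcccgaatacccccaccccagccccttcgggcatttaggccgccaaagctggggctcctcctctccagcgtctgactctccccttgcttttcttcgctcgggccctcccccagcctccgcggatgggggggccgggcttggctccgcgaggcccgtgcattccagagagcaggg
Sufu: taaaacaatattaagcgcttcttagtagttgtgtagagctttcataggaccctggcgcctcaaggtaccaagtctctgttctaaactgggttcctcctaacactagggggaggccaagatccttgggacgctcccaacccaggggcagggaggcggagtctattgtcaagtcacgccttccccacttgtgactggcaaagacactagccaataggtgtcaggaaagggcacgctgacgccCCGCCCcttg
Gli2: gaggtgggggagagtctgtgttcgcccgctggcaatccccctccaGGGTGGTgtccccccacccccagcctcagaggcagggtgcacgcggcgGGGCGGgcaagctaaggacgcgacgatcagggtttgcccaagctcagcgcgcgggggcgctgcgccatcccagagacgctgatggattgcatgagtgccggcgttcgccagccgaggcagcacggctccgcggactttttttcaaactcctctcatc
The Gli2 window held 1 GLI core and 1 GC box. The Ihh window held 2 GC boxes, the Sufu window 1, and the Smo window none of the motifs searched. The GLI core lies within the longer GLI site GACCACCCA, which was in none of the 7 windows and in 0.2253% of 32851 windows of the same length. The core was in 3.924% of those windows, the GC box in 32.74%, and the retinoid receptor half-site AGGTCA, which was in none of the 7, in 14.02%. The GC content was 72.0% for Ihh, 68.4% for Smo, 67.2% for Gli2 and 54.0% for Sufu, beside a median of 52.4%. A match is a description of letters in a window, and no binding was measured.

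Of the ligands, Shh went from the limit of detection to a clear signal. Shh (chr5:28456815-28467256, minus strand, protein coding) had 0 and 3 counts in the Undiff libraries and 187 and 322 in the Day4 libraries, which were 195 and 247 normalized counts (221 ± 36.7, SD, n = 2). With 3 counts per Undiff library taken as the floor, Shh was at least 65.9-fold higher in Day4 (adjusted p = 1.9e-09, edgeR's quasi-likelihood test, adjusted by Benjamini-Hochberg over all genes tested, as for every adjusted p below). Both Undiff libraries were thus at or under the floor, and both Day4 libraries were far above it. In the annotation 807 of the 2847 exonic bases of Shh overlap exons of 9530036O11Rik on the other strand, which had between 0 and 3 counts in the 4 libraries.

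Ihh was detected in both states and rose. Ihh (chr1:74945315-74951672, minus strand) had 10.4 and 9.57 normalized counts in Undiff and 142 and 156 in Day4. The rise was 14.9-fold (log2 fold change 3.89, SE 0.25, adjusted p = 7.2e-09). The replicates of each state lay close together. Its raw counts in Undiff were 10 and 8, so that its level there rests on few fragments. Within the Day4 libraries, the raw counts of Ihh were 0.727 and 0.630 of those of Shh. After division by exon length, Shh made up 61.2% ± 2.40 and Ihh 38.8% ± 2.40 (SD, n = 2) of both ligands together in Day4.

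Markers of cells that make these ligands in the embryo moved in both directions. Of all genes tested, 22.2% were DEGs higher and 20.6% DEGs lower in Day4. Of 9 markers of notochord and floor plate, 2 were DEGs higher and 2 lower in Day4, and their summed level stayed between 40.9 and 44.8 CPM in the 4 libraries. Most of that sum was Ntn1, at 28.2 and 32.2 CPM in Undiff and 32.9 and 32.5 in Day4, and the other markers summed to between 11.9 and 12.7. Foxa2, a transcription factor of floor plate, notochord and endoderm, had 11.5 and 14.4 normalized counts in Undiff and 44.9 and 66.8 in Day4 (log2 fold change 2.15, SE 0.34, adjusted p = 6.6e-05). Noto had no count in any library, and T, a factor of notochord and primitive streak, fell from 122 and 83.8 normalized counts in Undiff to at or under 3 counts in both Day4 libraries. Of 10 endoderm markers 5 were DEGs higher and 2 lower, with sums of 35.9 and 40.5 CPM in Undiff and 21.2 and 22.2 in Day4, and Cer1 was at or under 3 counts in all 4 libraries. The lower sum was due to Cubn, an endocytic receptor, at 27.7 and 32.6 CPM in Undiff and 2.63 and 2.39 in Day4. The markers without Cubn summed to 8.23 and 7.88 in Undiff and 18.6 and 19.8 in Day4. Amn, the other DEG of this list that was lower, had 67.7 and 79.0 normalized counts in Undiff and 4.18 and 1.54 in Day4. The part of such cells in the rise of Shh and Ihh was not tested.

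The receptor and the transducer differed in their change. Smo (chr6:29735503-29761365, plus strand), the membrane protein that carries the signal inwards, had 1440 and 1310 normalized counts in Undiff and 9665 and 9236 in Day4. It rose 6.87-fold (log2 fold change 2.78, SE 0.06, adjusted p = 4.8e-14), with both Day4 libraries far above both of Undiff, and is the member whose printed window held no searched motif. Ptch1 (chr13:63508328-63573598, minus strand), the ligand receptor that restrains Smo, had 4435 and 3781 normalized counts in Undiff and 3520 and 3666 in Day4. Its log2 fold change was -0.19 (95% interval -0.33 to -0.05, adjusted p = 0.015). The gap between the Undiff libraries was larger than the gap between the states at their nearest libraries, and the adjusted p was 0.2 without Undiff replicate 1.

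The raw counts of Ptch1 were 3.08 and 2.89 times those of Smo in the Undiff libraries and 0.364 and 0.397 times in the Day4 libraries. This ratio is taken within a library and needs no scaling between libraries. It fell by 7.84-fold, more than the spread between replicates (log2 ratio 1.58 ± 0.07 in Undiff and -1.40 ± 0.09 in Day4, SD, n = 2). The exact two-sided permutation p over the 4 libraries was 0.333, the smallest that 2 against 2 libraries can give.

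Hhip (chr8:79965851-80058006, minus strand), a membrane-anchored protein that binds and sequesters the ligands, had 173 and 200 normalized counts in Undiff and 227 and 286 in Day4. The log2 fold change was 0.49 (95% interval 0.19 to 0.78, adjusted p = 0.0057), which is under 2-fold over the whole interval. The Day4 libraries differed from each other by more than the higher Undiff library differed from the lower Day4 library, and the adjusted p was 0.17 without Day4 replicate 2.

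The 3 Gli factors were higher in Day4 to unequal extents. Gli3 (chr13:15463235-15730026, plus strand), the member of the family best known as a source of repressor, had 710 and 799 normalized counts in Undiff and 3832 and 4074 in Day4. It rose 5.24-fold (log2 fold change 2.39, SE 0.06, adjusted p = 8.9e-13), and both Day4 libraries lay far above Undiff. Gli2 (chr1:118834132-119053619, minus strand), the main activator in many tissues, had 1125 and 1167 in Undiff and 2231 and 2100 in Day4. Its 1.89-fold difference had an adjusted p of 5e-09 but was not a DEG at 2-fold, and its 95% interval on the log2 scale (0.79 to 1.04) spans that limit. Gli1 (chr10:127329882-127341974, minus strand), an activator and a common readout of the pathway, had 1843 and 1952 in Undiff and 2141 and 2087 in Day4. Its log2 fold change was 0.16 (95% interval 0.04 to 0.27, adjusted p = 0.017), so that the interval lies well inside 2-fold. In 6 of 10 other settings its adjusted p was above 0.05, up to 0.18.

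Sufu (chr19:46396896-46488804, plus strand) had 1044 and 1068 normalized counts in Undiff and 3799 and 3949 in Day4. It rose 3.67-fold (log2 fold change 1.88, SE 0.05, adjusted p = 1.4e-12). The Undiff replicates were close together (1056 ± 17.2, SD, n = 2), and both Day4 libraries lay far above them.

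**Figure D2:**
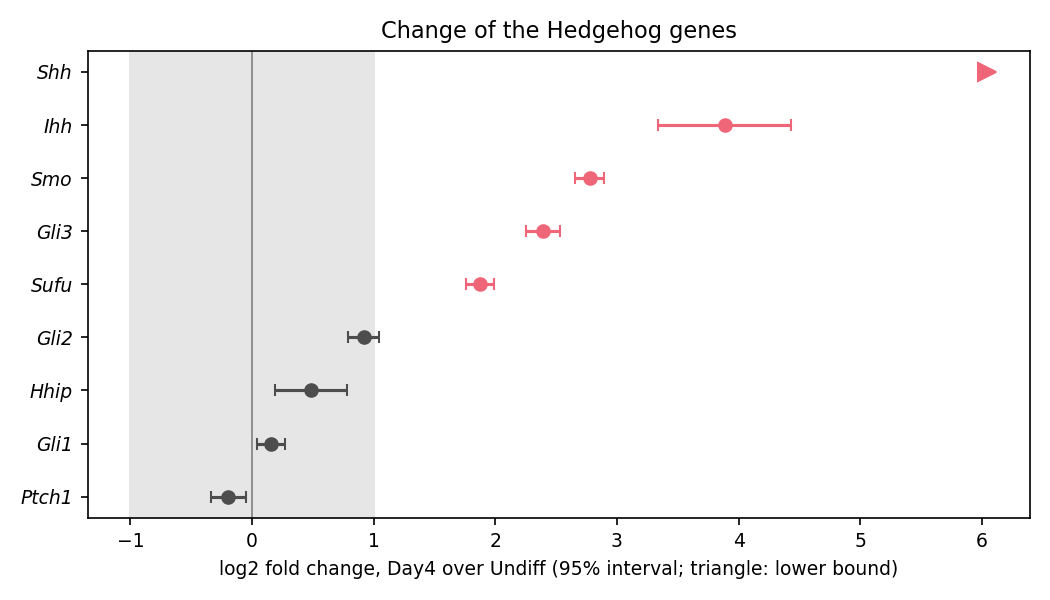
Log2 fold change of each Hedgehog gene, Day4 over Undiff (horizontal axis), with 95% intervals from edgeR. The grey band marks changes under 2-fold, red marks DEGs, and the triangle for Shh is a lower bound at 6.04. The intervals of Ptch1, Gli1 and Hhip lie wholly inside the band and that of Gli2 crosses its edge.

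The make-up of the Gli transcripts shifted towards Gli3. Per exon length, Gli1 made up 60.7% ± 0.093 of the 3 Gli transcripts in Undiff and 36.8% ± 0.56 in Day4 (SD, n = 2). Gli3 made up 12.6% ± 0.53 and 35.8% ± 1.66. The share of Gli2 was 26.7% ± 0.44 in Undiff and 27.4% ± 1.09 in Day4, a difference within the replicate spread. As raw counts within a library, the ratio of Gli1 to Gli3 was 2.60 and 2.44 in Undiff and 0.559 and 0.512 in Day4, a 4.71-fold fall. The ratio of Gli2 to Gli3 was 1.59 and 1.46 in Undiff and 0.582 and 0.515 in Day4, a 2.78-fold fall. Both falls were larger than the spread between replicates, and each had the exact permutation p of 0.333, the smallest possible. The counts are of RNA and do not tell full-length Gli3 protein from its processed form. In the annotation 327 of the 4995 exonic bases of Gli1 overlap Arhgap9 on the other strand, a gene with 345 and 322 counts in Undiff and 62 and 92 in Day4. The methods say that strandedness was taken into account in counting on genes. They name only the study's direct RNA samples, which these libraries are not, as run strand-specific. For exons they give unstranded counting of these libraries. Whether strand separated Gli1 from Arhgap9 in the counts on genes is not known. Gli3 and Hhip overlap other annotated genes on the other strand over 188 of 9589 and 175 of 9076 exonic bases, and those genes were not analysed here.

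**Figure D3:**
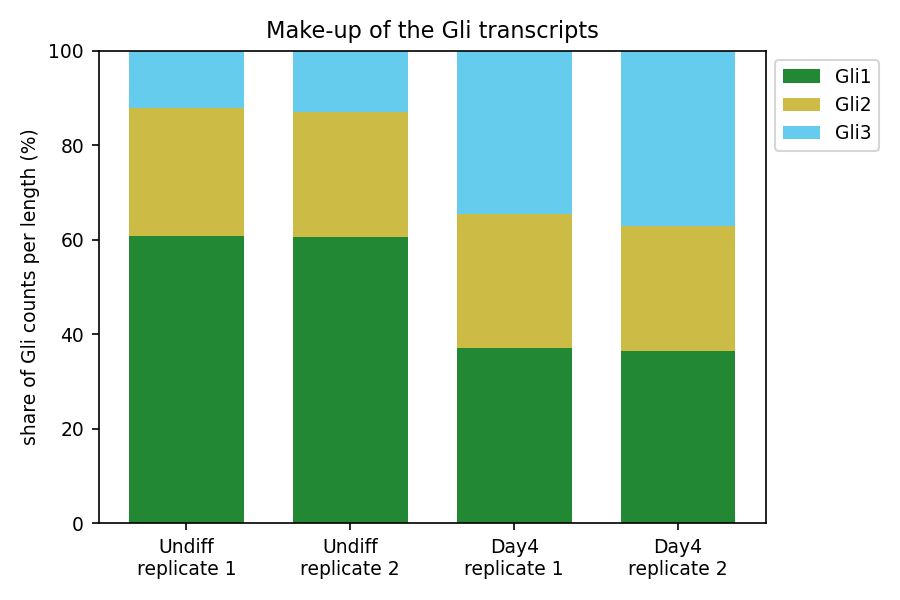
Share of Gli1, Gli2 and Gli3 in the sum of the 3 transcripts, as counts per exon length (vertical axis, percent), in each library. Gli3 took 12.2% and 12.9% in the Undiff libraries and 34.7% and 37.0% in the Day4 libraries, while Gli1 took a smaller share in Day4.

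Levels of different genes were compared as CPM divided by the exon length in kb. In Undiff the order from high to low was Gli1 (9.91 ± 0.36), Ptch1 (7.56 ± 0.88), Smo (6.39 ± 0.45), Gli2 (4.35 ± 0.095), Sufu (3.58 ± 0.046), Gli3 (2.05 ± 0.17), Hhip (0.536 ± 0.053), Ihh (0.0856 ± 0.0054) and Shh (0.0164 ± 0.023, SD, n = 2 throughout). No neighbours in that order overlapped between their libraries, although Ptch1 in replicate 2 and Smo in replicate 1 were close at 6.94 and 6.70. In Day4 the order was Smo (46.0 ± 1.59), Sufu (13.8 ± 0.34), Gli1 (11.6 ± 0.24), Gli3 (11.3 ± 0.46), Gli2 (8.62 ± 0.39), Ptch1 (6.92 ± 0.18), Shh (2.12 ± 0.35), Ihh (1.34 ± 0.084) and Hhip (0.772 ± 0.13). Gli1 and Gli3 overlapped between their libraries in Day4, and the other neighbours did not. Smo thus stood at rank 3 in Undiff and rank 1 in Day4, and the ligands stayed among the 3 lowest in both states. With the longest transcript as the length, Gli2 and Sufu changed places in Undiff and Gli2 and Ptch1 in Day4.

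**Figure D4:**
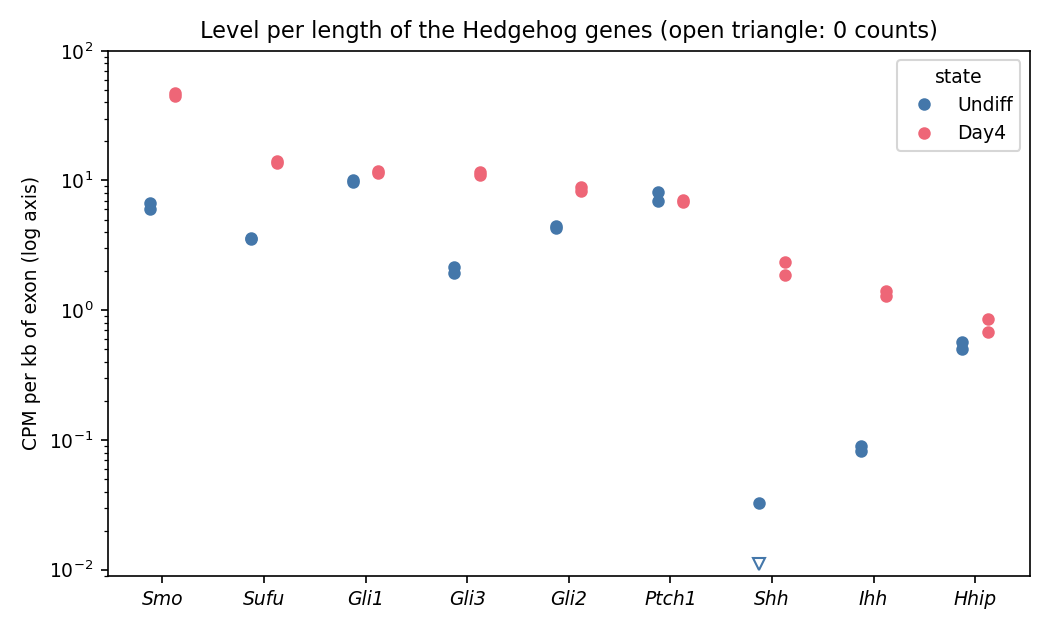
Level of the 9 Hedgehog genes as CPM per kb of exon (vertical axis, log scale), ordered by their Day4 mean, with 1 point per library. The open triangle marks the Undiff library with 0 counts of Shh, drawn at an arbitrary height. Smo is the highest in Day4, and the ligands span the widest gap between the states.

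Dhh, the remaining Hedgehog ligand of mammals, moved the other way from Shh and Ihh. It had 30.2 and 25.1 normalized counts in Undiff and 10.4 and 6.91 in Day4 (log2 fold change -1.71, SE 0.39, adjusted p = 0.0014). Dhh fell, and its libraries did not overlap between the states, as held for 85.4% of all genes tested. Its raw counts were 29 and 21 in Undiff and 10 and 9 in Day4, so that the change rests on few fragments. In the annotation 1107 of its 4399 exonic bases overlap other genes, among them Rhebl1 on the same strand.

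Of 7 genes of ligand maturation and release, 4 were DEGs higher and 2 lower in Day4. These are 85.7% of a short list, beside 51.7% of all genes that average 5 or more normalized counts. Hhat, the acyltransferase that attaches palmitate to the ligands, rose (log2 fold change 2.68, SE 0.16). Disp1, which releases the lipid-modified ligand from the cell, rose from 486 and 556 normalized counts to 1421 and 1455 (log2 fold change 1.47, SE 0.07), whereas its paralog Disp2 fell by 2.13 on the log2 scale (SE 0.40). Of the secreted Scube proteins, which aid release, Scube1 rose by 4.71 (SE 0.13) and Scube3 by 2.81 (SE 0.08), while Scube2 fell by 1.16 (SE 0.33) and was no longer a DEG without Undiff replicate 2 (log2 fold change -0.92) or without Day4 replicate 1 (-0.92). Adam17, a sheddase, had a log2 fold change of -0.40 and was not a DEG.

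The co-receptors and ligand-binding proteins changed in both directions, with large rises among them. Gas1, a membrane-anchored co-receptor that aids ligand binding to Ptch1, had 59.4 and 65.8 normalized counts in Undiff and 12880 and 11390 in Day4. It rose 194-fold (log2 fold change 7.60, SE 0.10, adjusted p = 1.2e-15), with both Day4 libraries far above Undiff. Boc, another co-receptor, rose from 119 and 105 to 2200 and 2081 (log2 fold change 4.25, SE 0.09), while its relative Cdon had a log2 fold change of 0.58 and was not a DEG. The glypicans are proteoglycans of the cell surface that bind ligand. Gpc6 rose by 5.58 (SE 0.10) and Gpc3, which is known to compete with Ptch1 for ligand, rose by 4.07 (SE 0.06), whereas Gpc4 fell by 1.75 (SE 0.08). Lrp2, an endocytic receptor that takes up Shh, fell by 2.06 (SE 0.06). Vtn, a matrix protein that binds Shh, had between 2.09 and 12.0 normalized counts and did not pass (adjusted p = 0.26). In all, 4 of 8 genes were DEGs higher and 2 lower in Day4. These are 75.0% of a short list, beside 51.7% of all genes that average 5 or more normalized counts.

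Of 15 genes that process or restrain the Gli proteins, 7 were DEGs, each of them higher in Day4. Without a minimum fold change 13 were higher and 1 was lower, Tulp3, at a log2 fold change of -0.45. By that measure 14309 of the 16472 genes that average 5 or more normalized counts were called. Gnas, which encodes the stimulatory G protein alpha subunit upstream of protein kinase A, rose by 3.13 (SE 0.04). In the annotation it has 24 transcripts, which the count does not tell apart, and 2457 of its 11186 exonic bases overlap genes on the other strand. Gpr161, a ciliary receptor that raises cAMP, rose by 2.94 (SE 0.11), and Prkar1a, the regulatory subunit of protein kinase A, by 1.71 (SE 0.04). Of 11 genes of Smo trafficking and Gli activation, 4 were DEGs higher and 1 lower. Stk36, the fused kinase homologue, rose by 2.04 (SE 0.08), Iqce by 1.64 (SE 0.07) and the ciliary kinesin Kif7 by 1.15 (SE 0.07), and the beta-arrestin Arrb2 fell by 1.12 (SE 0.05). Of 21 genes of the primary cilium and intraflagellar transport, 6 were DEGs higher and 1 lower. The share of DEGs in either direction was 46.7% in the list of Gli processing, 45.5% in that of Smo trafficking and 33.3% in that of the cilium. Each lies below the 51.7% of all genes that average 5 or more normalized counts, so that these shares do not set the lists apart. By direction, the 7 DEGs of Gli processing were all higher in Day4. Of the 16472 genes that average 5 or more normalized counts, 4420 were DEGs higher and 4101 DEGs lower. Bbs1 rose by 2.13 (SE 0.08), Ift122 by 2.04 (SE 0.09) and Ift140 by 1.34 (SE 0.08), while Mks1, of the transition zone, fell by 1.68 (SE 0.06).

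Of 20 genes known as Hedgehog targets in other tissues, 14 were DEGs higher and 4 lower in Day4. Of all genes tested, 42.8% were DEGs in either direction. The list was chosen with earlier results of these data known, and 7 of its 20 genes were at the floor in Undiff. Foxf1, a factor of splanchnic mesoderm, had 2.08 and 2.39 normalized counts in Undiff and 3299 and 3319 in Day4, at least 985-fold higher. Foxd2 had 1.04 and 1.20 in Undiff and 611 and 620 in Day4, at least 183-fold higher. Foxc2 had 5.21 and 1.20 in Undiff and 2163 and 2247 in Day4 (log2 fold change 9.32, SE 0.16). The value for Foxc2 rests on few counts in Undiff, and was 10.71 without Undiff replicate 1 and 8.70 without Undiff replicate 2. Ccnd1, a G1 cyclin, fell by 1.84 (SE 0.05), Prdm1 by 1.60 (SE 0.09) and Mycn by 1.32 (SE 0.05). Nkx2-2, a target in the ventral neural tube, was at or under 3 counts in all 4 libraries, and Olig2 had between 0 and 4.17 normalized counts. The median log2 fold change of the list was 2.91 over the 19 genes above the floor in at least 1 state, with genes at the floor set to their bound. The early targets Gli1, Ptch1 and Hhip among the members each had an estimated change within 2-fold, as given above.

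Over all 84 listed genes of the pathway other than the members, 51 were DEGs (60.7%), 39 higher and 12 lower. The 64 genes left without the targets held 33 DEGs (51.6%), of which 25 were higher and 8 lower, with a median log2 fold change of 0.62. All 64 had a mean normalized count of at least 5, and their share of DEGs was close to the 51.7% among all genes with such a mean, for which the median was 0.03. The share of DEGs in the whole list of 84 is above that figure through the targets, of which 90.0% were DEGs. As the targets were chosen with earlier results of these data known, their share only describes the list. Those of them at the floor in Undiff that were DEGs reached the mean of 5 through Day4 alone.

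**Figure D5:**
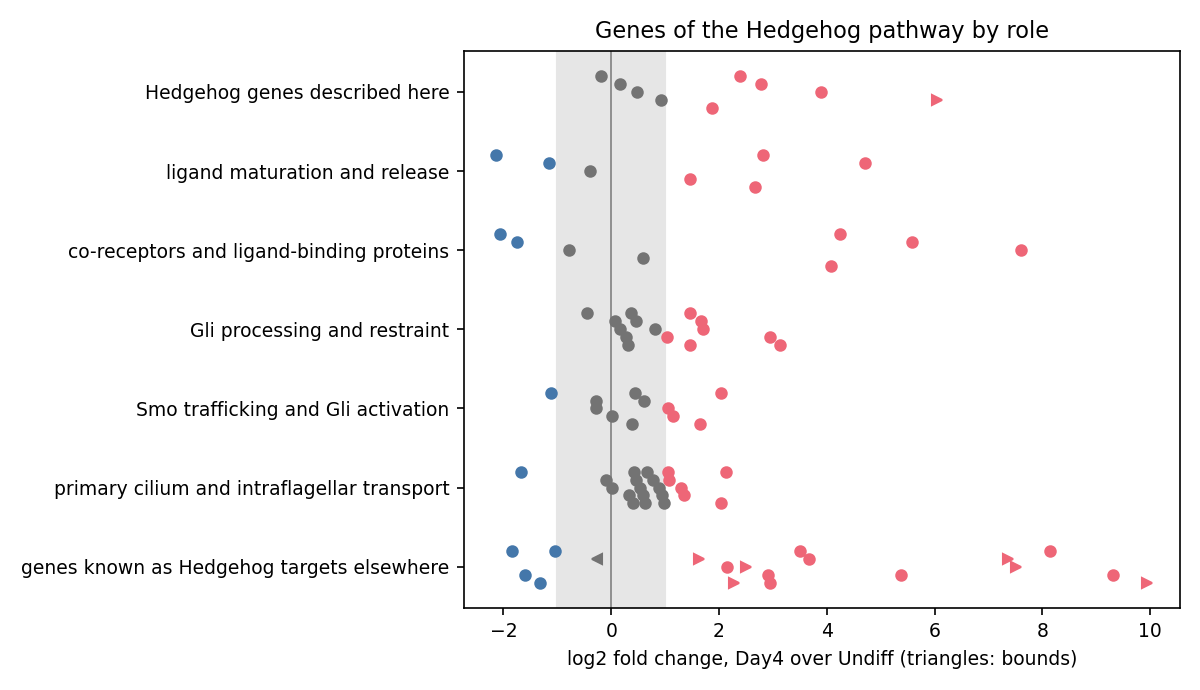
Log2 fold change, Day4 over Undiff (horizontal axis), of the genes of the Hedgehog lists of 7 or more genes, with 1 row per role. Red marks DEGs higher and blue DEGs lower in Day4, grey the other genes, triangles genes at the floor in one state drawn at their bound, and the grey band changes under 2-fold. Nkx2-2, at the floor in both states, is not drawn.

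Most of the listed markers of mesoderm, of fibroblasts and of blood and vessels were DEGs higher in Day4. For comparison, 22.2% of all genes tested were DEGs higher and 20.6% DEGs lower in Day4. Of 8 markers of lateral and splanchnic mesoderm 5 were DEGs higher and 1 lower in Day4, and their sum was 39.5 and 46.8 CPM in Undiff and 757 and 745 in Day4. Foxf1 and Hand2 stand in this list and among the targets. Of 7 fibroblast markers 6 were higher and 1 lower, with sums of 61.1 and 56.9 in Undiff and 612 and 562 in Day4. Of 7 erythroid and endothelial markers 5 were higher and 1 lower, with sums of 146 and 143 in Undiff and 388 and 367 in Day4. Of 9 neural markers 2 were higher and 5 lower, with sums of 150 and 150 in Undiff and 113 and 125 in Day4. Without Nes, which was higher in Day4, the neural sums were 107 and 105 in Undiff and 11.04 and 10.12 in Day4. Without Pecam1, which was lower, the erythroid and endothelial sums were 8.26 and 9.38 in Undiff and 326 and 305 in Day4. The part of these cell types in the rise of Smo, Gli3, Sufu, Gas1 and Boc was not tested.

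Genes with the pattern most like that of Gli1 and of Ihh were found by the Euclidean distance between centred log2 CPM over the 4 libraries, among 13734 genes with a mean CPM of at least 1. For Gli1 the nearest were Daam1 (distance 0.00978), Lin37 (0.0149) and Atxn7l2 (0.0208), whose log2 fold changes lay between 0.15 and 0.16. For Ihh they were Cachd1 (0.0647), Add2 (0.0771) and Mid1 (0.0806), with log2 fold changes between 3.61 and 3.71. With 4 libraries in 2 states, the distance is set mostly by the change between the states.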

How the data were processed

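The 4 Illumina TruSeq libraries of R1 mouse ESCs were assigned to Undiff or Day4 by their titles. The authors used cutadapt for trimming and STAR (version 2.4.2a in the submitters' processing notes) for alignment to mm10, and deposited counts of uniquely mapped fragments per gene symbol, from htseq-count, without normalization. The version of HTSeq is not given in the sources used here. The summary lines of the files name no gene and were left out of library sizes and tests. The labels name a poly(A) kit and a stranded kit that depletes ribosomal RNA, and the paper names the former.

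The quasi-likelihood test of edgeR 4.0.16 (glmQLFit, glmQLFTest, TMM scaling, R 4.3.3) was applied to the 19891 genes counted at least once, and p-values were adjusted over all of them by Benjamini-Hochberg. DEGs met the thresholds of the study's methods, which are 0.05 for the adjusted p, 1 for the size of the log2 fold change and 5 for the mean normalized count. SE is the log2 fold change divided by the square root of F. A gene at 3 counts or fewer was at the floor, and where this held for both libraries of a state, the fold was taken against 3 counts per library. In simulated counts with 200 changed genes among 19522, edgeR recovered 194 and made 1 false call. The libraries themselves gave 8521 DEGs among 19891 genes, and recovery with so large a share of changed genes was not tested. Counting error and replicate spread limit the precision, with 32099074 to 47730944 counts per library, and the biological coefficient of variation was 3.66%. No replicate pair differed by as little as sampling noise (chi-square per degree of freedom 5.71 in Undiff and 3.07 in Day4).

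The members and gene lists were chosen with earlier results of these data known. Named genes were all members, the paralogs, all genes of ligand maturation and of the co-receptors, and from each other pathway list up to 3 highest and 3 lowest DEGs averaging 50 or more normalized counts. For Gli1 and Ihh, the 3 nearest genes were taken. Markers were counted by list, with those at 0 named. Some genes that the rule takes are not reported here. Tulp3, Foxa2, Amn, Nkx2-2, Olig2, Hand2 and, for each marker sum they dominate, Ntn1, Cubn, Nes and Pecam1 were named after their values were seen. The sums without Ntn1, Cubn, Nes and Pecam1 were chosen after seeing the data. Positions and exon lengths came from GENCODE vM21 (GRCm38, equivalent to mm10), and promoters from RefSeq. The alternatives were DESeq2 1.42.0 with and without shrinkage (the authors used DESeq2), other scaling, filterByExpr, a replicate block, no minimum fold change, leaving out each library, the longest transcript as length, and leaving out genes that overlap another on the opposite strand.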

Additional observations from a re-analysis of the deposited data

How the results depend on the processing

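The number of DEGs was 8521, and between 8114 and 8549 under DESeq2, other scaling and filterByExpr. Without each library in turn it was between 8306 and 8410. The count of members called was 5 throughout, with range 5 to 5 without each library, and that of the pathway lists, 51, lay between 48 and 52, and between 48 and 51 without each library. Without a minimum fold change the counts were 14309 over all genes, 9 of the members and 77 of the pathway lists. Leaving out genes that overlap another on the opposite strand left 62 pathway genes with 39 DEGs (62.9%). With the fold threshold kept, each of the 9 members had the same call under all 10 other settings. The log2 fold change lay between 2.71 and 2.85 for Smo, 2.31 and 2.48 for Gli3, 1.82 and 1.94 for Sufu, 3.75 and 3.95 for Ihh, and 0.87 and 0.98 for Gli2. The fitted value for Shh, which is no bound because Undiff was at the floor, was 5.92 without Undiff replicate 1 and 10.91 without Undiff replicate 2. The adjusted p of Ptch1 and of Hhip exceeded 0.05 in 3 of 10 settings each and that of Gli1 in 6. Of 1352 values of other listed genes, 24 lost a call (6 genes, among them Scube2, Nkx6-1, Grem1, Tbx1 and Sox1) and 7 gained one (4 genes). The order per length kept 14 of 18 ranks with the longest transcript. Library totals moved the median log2 fold change by 0.07. Without each library, the log2 change of the ratio lay between -2.30 and -2.17 for Gli1/Gli3, -1.56 and -1.39 for Gli2/Gli3, and -3.03 and -2.91 for Ptch1/Smo. Where a state is left with 1 library, that library is assumed to vary like the others.

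Both states use replicate numbers 1 and 2, which the methods do not tie to a common batch. Same-numbered libraries did not deviate together (correlation -0.01 over genes). Whether they shared a run is not known. With a replicate block in the model there were 8515 DEGs, 5 members and 50 pathway genes, and the paired differences of the ratios were -2.23, -1.47 and -2.97, as without the block. With 2 libraries a state, the smallest exact p is 0.333, and Shh and Ihh in Undiff rest on 0 to 10 counts a library.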
